A study of Mus musculus with 6 samples.

Results

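Cd33, Siglech and Mpeg1 are 3 genes of myeloid cells that the deposited table lists by name, out of 345 listed genes. They were picked by gene name from a table that holds genes already called different between the groups, with their lower values in the treated cells known. The differences between the groups are therefore given here as a description of these libraries, with no p-value. The cells are RAW264.7, a mouse macrophage-like line that was derived from a tumor induced by Abelson murine leukemia virus. RNA is sequenced from 3 samples without any extract (Control) and from 3 samples kept for 48 h in extract of a gyroid (G) scaffold of Zn-0.8Li alloy, diluted 5-fold (G scaffold). No genetic change and no treatment other than the extract is named for either group. The paper describes the culture of RAW264.7 cells in DMEM with fetal bovine serum, penicillin and streptomycin. No source states whether replicates come from separate cultures, so the spread between replicates may be technical.

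Siglecs are cell-surface lectins of the immunoglobulin superfamily that bind sialic acid, the sugar that caps many glycans of the body's own cells. CD33 (Siglec-3) is the founding member of the CD33-related Siglecs, most of which dampen the activation of myeloid cells. Siglec-H, encoded by Siglech, is found in mouse and is best known as a receptor of plasmacytoid dendritic cells and microglia, where it takes up bound cargo and signals through the adaptor DAP12. Perforin-2, encoded by Mpeg1, carries the same pore-forming MACPF domain as perforin and the terminal complement proteins. It resides in vesicles of macrophages and damages engulfed bacteria once it assembles into a pore.

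All 3 genes are lower in each G scaffold library than in each Control library. The mean of Siglech falls to 19.8% of the Control mean, that of Cd33 to 37.7% and that of Mpeg1 to 48.9%. A gene is called here by limma on log2(normalized count + 1) where its adjusted p-value does not exceed 0.05 and its fold change is 1 or more on the log2 scale. By this rule 3 of 3 members are called lower, while 15.9% of the 345 listed genes are called lower and 82.6% higher. In the whole table, 16.8% of the genes have every G scaffold library below every Control library, and 82.9% have every one above. The members were chosen on this contrast, so nothing is read from these shares. In bulk RNA, fewer cells that express a gene and less RNA per cell cannot be told apart.

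The table gives the genes identifiers and positions of the annotation of SPRET/EiJ, a strain of Mus spretus, while the submitters' processing notes name the builds GRCm38 and mm10. In the coordinates of the table, Cd33 (MGP_SPRETEiJ_G0030726) lies on the minus strand of chromosome 7 from 31202703 to 31208104. Siglech (MGP_SPRETEiJ_G0030905) lies on the plus strand of the same chromosome from 44056685 to 44068603, 12.8 Mb away. Mpeg1 (MGP_SPRETEiJ_G0023666) lies on the plus strand of chromosome 19 from 8873918 to 8878346. These positions cannot be used on GRCm38, where the GENCODE M21 annotation is read separately. There, 7 of the 9 genes of a Siglec family list are on chromosome 7. Distances are taken between the lowest coordinates of the genes, whatever their strand. By this measure Siglecg, Siglece and Siglecf lie 0.116, 0.127 and 0.173 Mb from Cd33, whereas Siglech lies 12.2 Mb from it. The principal transcript of Cd33 has 6 coding exons and that of Siglech has 5, while the whole coding part of Mpeg1 is in 1 exon. None of the 3 genes overlaps another annotated gene on GRCm38.

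The letters before the start sites are shown because the 3 genes are lower together, and a reader may compare what their promoters hold. Each window covers 250 bases before and 50 bases after a RefSeq start site on GRCm38.p6, printed 5′ to 3′ on the strand of the gene. Capitals mark GAGGAA, or TTCCTC on the other strand, the core letters bound by PU.1, an ETS factor that many macrophage genes depend on. The windows are chr7:43533122-43533421 on the minus strand for Cd33, chr7:55767934-55768233 on the plus strand for Siglech and chr19:12460520-12460819 on the plus strand for Mpeg1. In GENCODE M21 the Cd33 gene spans 43524216 to 43544428 and has 6 transcripts. Its window therefore lies inside the gene, and any start sites elsewhere are not covered.
Cd33: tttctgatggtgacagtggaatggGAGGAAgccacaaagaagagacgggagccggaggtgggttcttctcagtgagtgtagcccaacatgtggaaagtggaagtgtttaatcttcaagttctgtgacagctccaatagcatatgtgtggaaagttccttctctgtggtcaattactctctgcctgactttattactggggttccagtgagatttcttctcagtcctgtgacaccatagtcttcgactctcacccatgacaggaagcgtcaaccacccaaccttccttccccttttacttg
Siglech: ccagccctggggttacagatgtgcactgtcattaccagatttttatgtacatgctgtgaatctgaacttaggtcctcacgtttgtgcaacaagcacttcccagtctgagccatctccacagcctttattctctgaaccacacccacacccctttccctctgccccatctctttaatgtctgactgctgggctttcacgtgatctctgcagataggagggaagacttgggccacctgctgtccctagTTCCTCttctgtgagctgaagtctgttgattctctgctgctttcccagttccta
Mpeg1: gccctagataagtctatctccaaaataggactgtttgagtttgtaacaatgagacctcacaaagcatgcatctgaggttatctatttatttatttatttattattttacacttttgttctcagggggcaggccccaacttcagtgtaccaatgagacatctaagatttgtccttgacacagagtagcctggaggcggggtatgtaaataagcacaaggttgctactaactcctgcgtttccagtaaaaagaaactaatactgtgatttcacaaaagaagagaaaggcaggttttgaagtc

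GAGGAA is found once in the Cd33 window and once in the Siglech window, on the opposite strand, and 28.3% of 32851 RefSeq promoter windows hold it on either strand. The match begins 226 bases before the start site in Cd33. In Siglech it begins 4 bases before the start site and runs across it. The Mpeg1 window does not hold these letters. The E-box CACGTG and the C/EBP letters TTGCNNAA each match once in the Siglech window and in neither of the other windows, against 7.15% and 10.8% of all windows. TGCNCNC is a loosened form of the core of the metal response element, which the zinc sensor MTF-1 binds. It matches once in the Mpeg1 window and in neither Siglec window. The matched letters, GGGGGCA on the opposite strand, hold a G where the core itself has C or T on that strand. The match is therefore to the loosened letters and not to the core. TGCNCNC occurs in 51.0% of all windows. The AP-1 letters TGANTCA, the IRF letters GAAA followed after any 2 bases by GAAA, and the TATA box letters TATAAA match in none of the 3 windows, and 7.81%, 3.44% and 13.6% of all windows hold them. The windows hold 4, 2 and 2 CpG dinucleotides in Cd33, Siglech and Mpeg1, against a median of 7 over all windows. No MTF-1, PU.1 or other binding is measured in this study, and a match is a stretch of letters only.

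Overlap in sequence with other genes was measured on the reference transcripts. Of the 31-base words in the GENCODE transcripts of Cd33, 0.922% also occur in a transcript of another gene, and the shares for Siglech and Mpeg1 are 0.659% and 0.727%. With words of 50 bases the shares are 0.458% for Cd33, 0.389% for Siglech and 0% for Mpeg1. All shared 31-base words of Mpeg1 belong to Pfpl, a perforin-2-like gene. How the authors assigned reads that match several genes is not given in the sources used here.

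Cd33 has 1100.0, 1261 and 1374 normalized counts in the Control libraries, in the order of replicates 1, 2 and 3. In G scaffold replicates 1, 2 and 3 it has 423, 506 and 479.7 normalized counts. The lowest Control library is 2.18-fold above the highest G scaffold library, so the groups are well apart. The mean goes from 1245 ± 138 in Control to 469.6 ± 42.0 in G scaffold (SD, n = 3 per group), which is -1.40 on the log2 scale with a standard error of 0.15. These values rest on 1107 to 1438 reads per Control library and 420 to 524 reads per G scaffold library.

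Siglech, the least abundant of the 3 genes, has 122, 108 and 91.7 normalized counts in the same order of Control replicates. In the G scaffold replicates it has 16.1, 19.3 and 28.4 normalized counts. Replicate 3 is thus the lowest Control library and the highest G scaffold library, and a 3.23-fold gap remains between them. The mean goes from 107 ± 15.3 in Control to 21.3 ± 6.37 in G scaffold (SD, n = 3 per group), and the log2 fold change of -2.31 has a standard error of 0.24. Only 16, 20 and 29 reads stand behind the G scaffold values, against 123, 100 and 96 reads in Control. The 95% exact Poisson intervals, which cover counting error only, run from 9.22 to 26.2 in G scaffold replicate 1 and from 19.0 to 40.8 in G scaffold replicate 3. In the Control library with the lowest value, replicate 3, the interval runs from 74.3 to 112, above all 3 G scaffold intervals.

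Mpeg1, the perforin-2 gene, has 9896, 8717 and 9177 normalized counts in the Control libraries. The G scaffold replicates have 4161, 4793 and 4637 normalized counts. The groups do not overlap, but the gap is the smallest of the 3 genes, with the lowest Control library 1.82-fold above the highest G scaffold library. The mean goes from 9263 ± 595 in Control to 4530.0 ± 329 in G scaffold (SD, n = 3 per group), which is -1.03 on the log2 scale with a standard error of 0.13. This value is close to the threshold of -1. Leaving out Control replicate 1 gives -0.98 and leaving out G scaffold replicate 1 gives -0.97, and Mpeg1 is then no longer called.

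**Figure D1:**
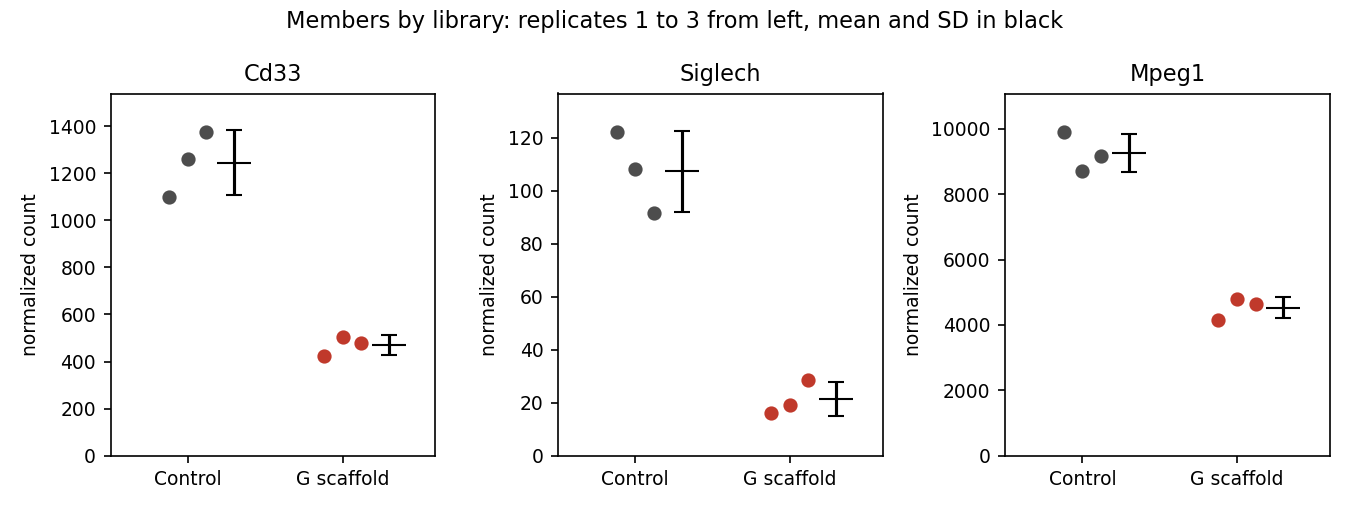
Normalized counts (vertical axes, each from 0) of Cd33, Siglech and Mpeg1 in 3 Control and 3 G scaffold libraries, with 1 point per library and the mean ± SD in black. The G scaffold points lie between 423 and 506 for Cd33, between 16.1 and 28.4 for Siglech and between 4161 and 4793 for Mpeg1, each below all Control points of the same gene.

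The size of the changes depends on how the libraries are scaled. The deposited values are taken as reads divided by 1 size factor per library, inferred from the values as 0.924 to 1.05. With TMM factors computed from the table, the log2 fold changes become -2.89 for Cd33, -3.76 for Siglech and -2.52 for Mpeg1. The median over all 345 genes goes from 1.87 to 0.48 with this scaling. With column totals over the listed genes, which move that median to 1.27, the values are -2.05, -2.94 and -1.68. Both scalings move values down, so they could not have brought the 3 genes above 0. The 55 lower and 285 higher calls of the table become 58 and 134 with TMM factors and 58 and 191 with column totals. TMM takes most listed genes as equal between the groups and column totals take their sum as equal, while the table holds only called genes.

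Ratios of reads inside a library do not depend on the size factor. Siglech has 11.1, 8.58 and 6.68 reads per 100 reads of Cd33 in Control replicates 1, 2 and 3. In the G scaffold replicates it has 3.81, 3.82 and 5.92 reads per 100 reads of Cd33. The groups do not overlap, although Control replicate 3 and G scaffold replicate 3 lie near each other. On the log2 scale with pseudocount 1, this ratio differs by -0.91 between the group means, with an SD of 0.37 in Control and 0.35 in G scaffold. With pseudocount 10 the difference is -0.53.

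Mpeg1 has 9, 6.91 and 6.68 reads per read of Cd33 in Control replicates 1, 2 and 3. In the G scaffold replicates this ratio is 9.83, 9.48 and 9.67, a narrow range above all Control values. Control replicate 1 is close to the G scaffold libraries and stands apart from the other Control libraries. The log2 ratio is higher by 0.37 in G scaffold, with SDs of 0.23 in Control and 0.03 in G scaffold. Siglech has 12.4, 12.4 and 10 reads per 1000 reads of Mpeg1 in Control, and 3.88, 4.03 and 6.12 in G scaffold. The difference of this log2 ratio is -1.28, or -0.89 with pseudocount 10, and its SDs are 0.18 and 0.35. All 3 ratios are built from the contrast that chose the genes and carry no test.

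**Figure D2:**
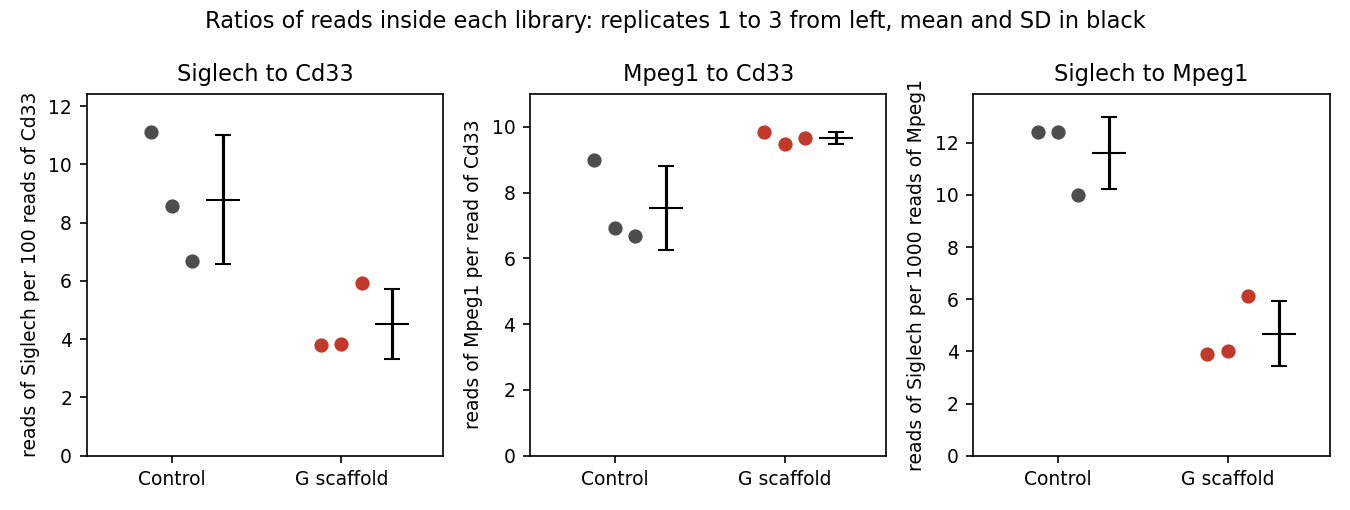
Ratios of reads between pairs of the 3 genes inside each library (vertical axes from 0, units on each axis), with 1 point per library and the mean ± SD in black. Siglech per 100 reads of Cd33 lies from 6.68 to 11.1 in Control and from 3.81 to 5.92 in G scaffold, while Mpeg1 per read of Cd33 lies from 6.68 to 9 and from 9.48 to 9.83.

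The replicate spread is above the spread that counting alone gives for each gene and group, relatively most for Mpeg1 and least for Siglech. With 3 libraries per group, whether the spread of Siglech exceeds counting error was not tested. The coefficient of variation of Mpeg1 is 6.42% in Control and 7.27% in G scaffold, where counting alone gives 1.04% and 1.47%. That of Cd33 is 11.1% and 8.94%, against 2.84% and 4.57% from counting. Siglech varies by 14.2% in Control and 29.9% in G scaffold, and with its few reads counting alone gives 9.70% and 21.5%. G scaffold replicate 1 has the lowest value of its group for all 3 genes. In Control, replicate 1 is the lowest for Cd33 and the highest for Siglech and Mpeg1.

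Per kb of the gene length in the table, the Control level is 2177 normalized counts for Mpeg1, 335 for Cd33 and 31.4 for Siglech. Mpeg1 has the 5th highest of the 345 Control levels per kb, Cd33 the 17th and Siglech the 88th, and the median of the table is 5.56. In G scaffold the levels per kb are 1065, 127 and 6.22, so the order of the 3 genes is the same in both groups. Neighbours in this order differ by more than the replicate spread in either group. Among the 58 genes with a lower mean in G scaffold, Siglech has the 10th largest fall on the log2 scale, Cd33 the 28th and Mpeg1 the 52nd. The median of these 58 genes is -1.38.

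**Figure D3:**
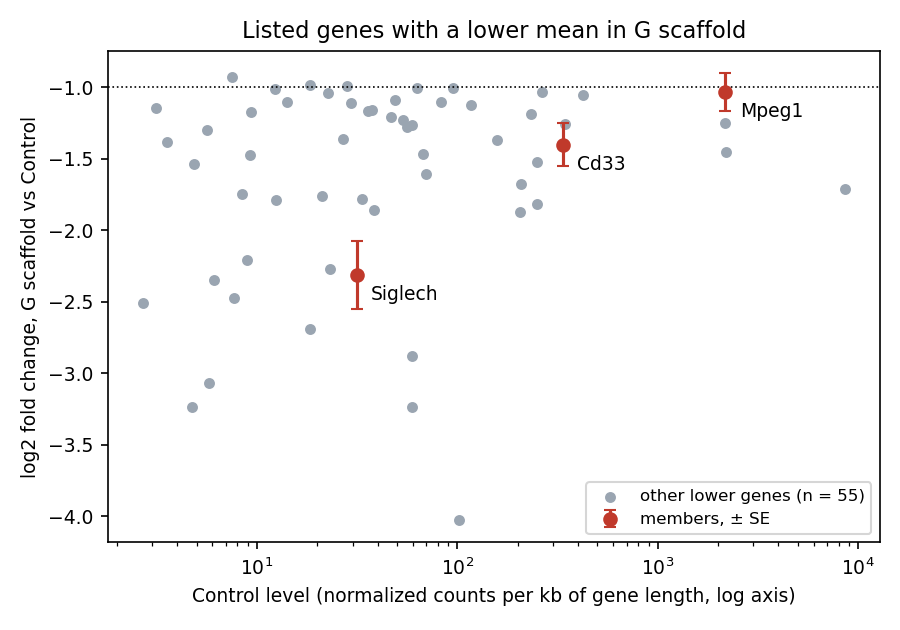
Log2 fold change (vertical axis) against the Control level in normalized counts per kb (horizontal log axis) for the 58 genes with a lower mean in G scaffold; the members are in red with their standard errors, and the dotted line marks a log2 fold change of -1. Mpeg1 lies at 2177 per kb with -1.03, Cd33 at 335 per kb with -1.40 and Siglech at 31.4 per kb with -2.31.

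Of the 9 genes on the Siglec family list, only Cd33 and Siglech are in the table, so values of the other family members are not analysed here. The same holds for Tyrobp, which encodes the DAP12 adaptor, and for all 27 genes of a list of DAP12-coupled and paired myeloid receptors. Of 17 partners of Siglec and ITAM signaling, 2 are listed and they go in opposite directions. Blnk, an adaptor protein that links the kinase Syk to downstream enzymes, has 427, 378 and 403 normalized counts in Control and 153, 152 and 131 in G scaffold. Src, a tyrosine kinase, has 12.9, 17.3 and 28.7 in Control and 78.6, 91.7 and 80.3 in G scaffold. Neither gene has overlapping groups, but 16.8% of the 345 listed genes lie wholly lower and 82.9% wholly higher in G scaffold. The log2 fold changes of Blnk and Src are -1.46 and 2.10. With TMM factors the value for Src is 0.66, and it is no longer called.

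On a list of 37 genes for the synthesis, transfer and removal of sialic acid and the sulfation of its glycans, 2 are in the table. Both are called lower, as are 15.9% of the 345 listed genes. Since every listed gene had been called beforehand, nothing is read from this share. Cmah, the enzyme that turns the sialic acid Neu5Ac into Neu5Gc in mouse, has 84.5, 90.9 and 84.1 normalized counts in Control. It has 21.2, 24.1 and 28.4 in G scaffold, a log2 fold change of -1.78. Chst1, a sulfotransferase acting on galactose in glycans, has 196, 114 and 167 normalized counts in Control and 13.1, 28.9 and 21.5 in G scaffold. Its log2 fold change is -2.88, with wide replicate spread in both groups. No sialic acid or glycan is measured here.

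Mpeg1 is the only listed gene among 24 genes for membrane pore proteins. Among 28 genes for phagosomal killing, Acod1 alone is listed. It encodes the enzyme that makes itaconate, and goes from 55.4 ± 9.27 normalized counts in Control to 134 ± 13.4 in G scaffold (SD, n = 3 per group), with a log2 fold change of 1.26. The value for Acod1 is 0.63 with column totals, where it is no longer called, and -0.20 with TMM factors. None of 10 defining macrophage markers, among them Csf1r, Adgre1 and Cd68, is in the table, so the labelled cell type could not be checked against them.

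Siglech is also on a list of 22 genes of microglia and plasmacytoid dendritic cells, of which 3 are in the table. Siglech was picked with its lower values known. The other 2, P2ry12 and Gpr34, are also called lower, as are 15.9% of the 345 listed genes. All listed genes had been called beforehand, so nothing is read from this share. P2ry12, an ADP receptor of microglia, has 23.8, 24.9 and 15.3 normalized counts in Control and 8.06, 2.89 and 6.85 in G scaffold. Gpr34, a lysophospholipid receptor gene, has 20.9, 21.6 and 13.4 in Control and 2.02, 3.86 and 3.92 in G scaffold. Both genes have low counts in G scaffold. Their log2 fold changes are -1.75 for P2ry12 and -2.21 for Gpr34. With pseudocount 10 these are -0.98, which is no longer called, and -1.10.

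Markers of other cell types are few in the table. Of 10 osteoclast markers, 4 are listed, with Acp5, Atp6v0d2 and Ctsk lower (-1.87, -1.11 and -1.76 on the log2 scale) and Mmp9 higher (2.57). Atp6v0d2 is at -0.98 without Control replicate 1 and at -0.95 with pseudocount 10, and is then no longer called. Of 8 markers of fibroblasts or preosteoblasts, Col1a1 is listed at 0 in the Control libraries and at 8.06, 8.68 and 4.89 normalized counts in G scaffold. No marker on the B cell, T cell, epithelial cell and granulocyte lists is in the table. The part of other cell types or of a shift in cell state in the values of Cd33, Siglech and Mpeg1 was not tested.

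**Figure D4:**
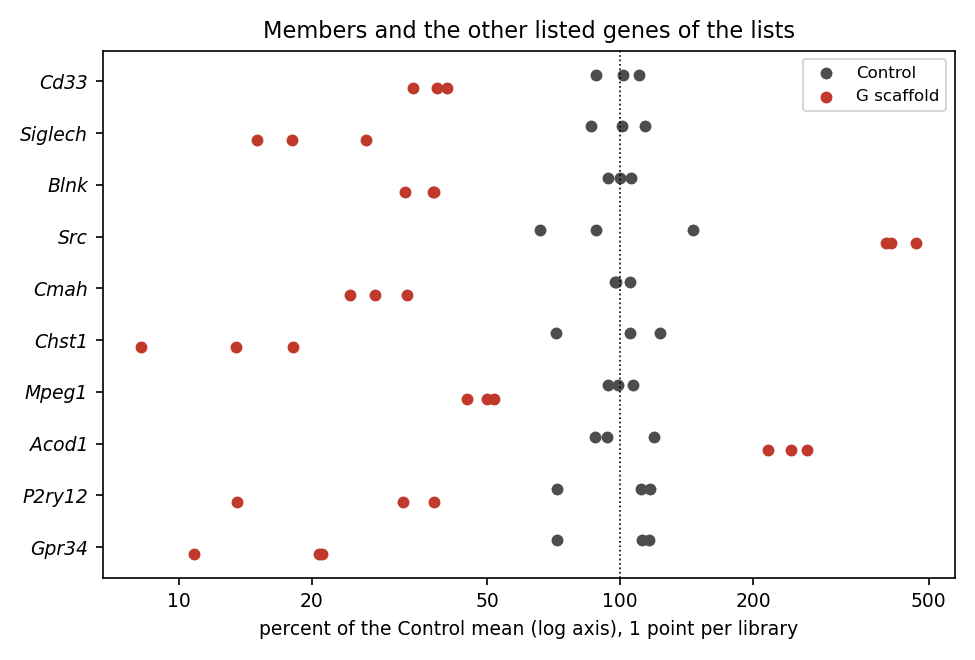
Normalized counts of the 3 members and the 7 other listed genes of the lists, each as percent of its own Control mean (horizontal log axis), with 1 point per library for Control (grey) and G scaffold (red). Cd33, Siglech, Mpeg1, Blnk, Cmah, Chst1, P2ry12 and Gpr34 have their G scaffold points to the left of their Control points, and Src and Acod1 to the right on the deposited scaling, of which Acod1 changes direction with TMM factors.

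A gene model without a name adjoins Siglech. It starts at base 44068604 on chromosome 7, right after the last base of Siglech, and lies on the minus strand up to 44069148. It has 12, 8 and 8 reads in Control replicates 1, 2 and 3 and 3, 0 and 0 reads in the G scaffold replicates. The strand setting of the authors' counting is not given in the sources used here, so these reads and reads from beyond the 3′ end of Siglech cannot be told apart. No other listed gene lies within 1 Mb of Siglech, and none within 1 Mb of Cd33 or Mpeg1, in the coordinates of the table.

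The genes most like each member are found from the root mean square difference of the centred log2(normalized count + 1) profiles over the 6 libraries, among the 92 listed genes with a mean of at least 100 normalized counts. Because each profile is mainly the difference between the groups, this likeness mostly reflects a similar log2 fold change. For Mpeg1 these are Havcr2 (0.09), which encodes the inhibitory receptor TIM-3, Fam13c (0.09), Gpnmb (0.11), Agmo (0.12) and Mxd4 (0.13). Havcr2 goes from 227 ± 9.03 in Control to 105 ± 3.55 in G scaffold (SD, n = 3 per group). For Cd33 they are Itga4 (0.13), the integrin alpha 4 gene, Ndrg4 (0.13), Trp53i11 (0.14), Hpgd (0.16), which encodes a prostaglandin-degrading enzyme, and Gpnmb (0.16). Itga4 goes from 30838 ± 1501 in Control to 11413 ± 2327 in G scaffold, also in normalized counts.

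For Siglech, whose own mean of 64.3 normalized counts is below that filter, the nearest of the 92 genes are the unnamed MGP_SPRETEiJ_G0014918 (0.30), Jam2 (0.32), Acp5 (0.41), the retinoic acid receptor gene Rarb (0.43) and the sphingosine-1-phosphate receptor gene S1pr1 (0.44). Without the filter, a choice made after the data were seen, Gpr34 (0.21) is the nearest of all listed genes to Siglech, and Itga4 and Havcr2 stay the nearest to Cd33 and Mpeg1. Among the members themselves, Mpeg1 and Cd33 differ by 0.23, Siglech and Cd33 by 0.54 and Siglech and Mpeg1 by 0.68. These differences are a description over 6 libraries that share the same groups and size factors.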

How the data were processed

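Gene expression was measured by RNA-seq (SMARTER mRNA-Seq kit, per the labels) in 3 Control and 3 G scaffold samples. The deposited signal values are taken to be gene reads that the authors divided by 1 size factor per library. The lowest value above 0 of each library was assumed to be 1 read, from which its size factor was inferred. Multiplied back, 100.0% of the values come out whole within 0.001, which gave the reads quoted here. In Control replicate 1 and G scaffold replicate 1 the value of 1 read is 0.994 and 1.01, too near 1 for a separate check of whole reads to accept, so reads of these libraries are less certain. Over the listed genes these sum to 88836 to 156029 reads per library, which is not the sequencing depth. The aligner, counter and annotation release are not given in the sources used here; the submitters' processing notes name GRCm38 and mm10. The columns of the authors' own fold changes and p-values were not used.

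The fit was limma 3.58.1 (R 4.3.3) on log2(value + 1), with no filter and no term but the group, and with Benjamini-Hochberg adjustment over 345 genes, tested on simulated data first. Fold changes on this scale understate changes of low genes. The members, the gene lists and the motifs were chosen with earlier results of these data known, and 1 further item is not reported here. Named genes are the members, the listed genes of the lists, listed genes within 1 Mb of a member, and the 5 genes most like each member. No library of a group repeated another (chi-square of their reads divided by its degrees of freedom, 2.13 to 6.45). Alternatives were other pseudocounts, filters, scalings, a replicate block and each library left out. Promoters are from RefSeq (GRCm38.p6), with all 3 members matched. Python 3.11.15, pandas 2.3.3, numpy 2.4.6, scipy 1.17.1 and matplotlib 3.10.9 were used.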

Additional observations from a re-analysis of the deposited data

How the results depend on the processing

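Cd33, Siglech and Mpeg1 stayed below 0 in all 38 of their alternative values. The members were chosen as lower and their groups do not overlap. Leaving out a library or changing the pseudocount could therefore not have turned the direction. The filters and the replicate block left the log2 fold changes as they were, and both other scalings move values down. None of these settings could have turned the direction either. Leaving out 1 library gave log2 fold changes from -1.49 to -1.33 for Cd33, from -2.53 to -2.14 for Siglech and from -1.08 to -0.97 for Mpeg1, which lost its call in 2 of these fits. No source states whether same-numbered libraries belong together. Their deviations from the group means showed little correlation (-0.07, -0.05 and 0.05 over 92 genes), which cannot show whether they share a culture or batch. With the replicate block the values are the same and the standard errors are 0.16, 0.28 and 0.17, and no member lost its call. The filter at a mean of 100 leaves out Siglech, and count models on the recovered reads were not run. With pseudocount 10 the log2 ratio of Siglech to Cd33 differs by -0.53 and that of Siglech to Mpeg1 by -0.89, since 10 is near the Siglech counts in G scaffold. Leaving out 1 library gave -1.11 to -0.72 and -1.48 to -1.17 for these ratios and 0.29 to 0.51 for Mpeg1 to Cd33. Of the listed genes, 55 are called lower and 285 higher. These counts run from 50 to 53 and from 276 to 283 without 1 library. They are 23 and 68 with the filter at a mean of 100, and the higher count is 115 with the filter at 10 in every library and 134 with TMM factors; both filters test fewer genes. With the replicate block they are 55 and 284. For the 26 other named genes, 312 of 321 alternative values kept direction and call, and 8 lost the call, in Src, Acod1, P2ry12, Atp6v0d2, Col1a1, Fam13c and the gene model next to Siglech. The direction changed in 1, Acod1 (-0.20) with TMM factors.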
